A study of Mus musculus with 6 samples.

Results

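The transcripts of 40 genes of the TCA cycle and of mitochondrial fatty acid oxidation were compared between proliferating and differentiated C2C12 cells. The genes were taken by name: 15 enzymes and subunits of the TCA cycle, 6 enzymes of reactions that feed or drain the cycle, and 19 genes of fatty acid activation, carnitine transport and beta-oxidation. A gene was measured by the probe sets of the array that are annotated to its symbol alone. Of the 40 genes, 38 had such a probe set. They were represented by 84 of the 45037 probe sets tested, among 18193 genes measured in all. No probe set is named for Acsl1, a long-chain acyl-CoA synthetase, in the annotation used here. Cpt1b, the muscle form of carnitine palmitoyltransferase 1, is annotated only together with Chkb and Gm44502, so no value is given for either gene.

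C2C12 is a mouse cell line that grows as single myoblasts and fuses into myotubes when serum is withdrawn. Proliferating cells were grown with 20% serum, and differentiated cells were kept with 2% horse serum and examined on day 6, in a medium that the labels call MEM and the methods Dulbecco's MEM, with 3 arrays in each group. No allele or agent other than the change of medium separates the groups. As a model of muscle, the line is 1 immortalized cell culture, and some of the cells of a differentiated culture stay mononucleated beside the myotubes. Each RNA sample combined 3 pools, set up on successive days, of 3 culture plates each, so the spread between arrays is that of pools, and it does not hold the spread between single cultures.

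The TCA cycle oxidizes acetyl-CoA to carbon dioxide in the mitochondrial matrix and passes the electrons to the respiratory chain, while its intermediates are also drawn off for biosynthesis. Long-chain fatty acids are activated to acyl-CoA, carried into mitochondria as carnitine esters and shortened by the repeated steps of beta-oxidation, which yields acetyl-CoA and reduced electron carriers. In skeletal muscle both pathways are known for supplying ATP during sustained work and at rest.

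The deposited values are MAS 5.0 signals, brightness values on a linear scale on which every array has a trimmed mean of 250. Median signals were 68.0 to 73.0 on the proliferating and 72.3 to 81.4 on the differentiated arrays. The brightest of 27 probe sets for bacterial genes that mouse cells lack read 51.9 to 87.0, and this was taken as the level below which a signal could not be told from background. The cultures carried the markers their labels call for: of 9 myoblast and myotube genes 7 rose, among them Myog (log2 change 5.20) and Acta1 (6.56), and both measured proliferation genes, Mki67 and Top2a, fell (log2 changes -3.79 and -3.13). Of 14 measured markers of adipocytes, osteoblasts, endothelial cells, leukocytes and hepatocytes, 3 exceeded the bacterial controls on all arrays of at least 1 group. Of these 3, Adgre1, a macrophage gene, was higher in differentiated cells (adjusted p = 0.0494, and 0.0513 to 0.183 when any 1 of the 6 arrays was left out). Cd68, of the macrophage and leukocyte list, and Sp7, of the osteoblast list, were above the controls on all 6 arrays. Neither passed (log2 differences 0.10 and 0.40, adjusted p = 0.896 and 0.542). Ptprc, which all leukocytes carry, was above the controls on 1 array in all. The summed signal of the 3 adipocyte markers was 22.7 to 86.7 on proliferating and 90.0 to 150.4 on differentiated arrays, and none of them exceeded the controls on all arrays of either group. The part of other cell types in the results was not tested.

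Most of these transcripts were abundant in both states and changed little. Of the 38 measured genes, 13 fell, 3 rose and 22 did not pass the test, a moderated test in limma with p-values adjusted over all probe sets and a threshold of 0.05. Among all 18193 genes, 9.05% fell and 8.67% rose by the same test. Of the members, 34.2% fell, above that background, and 7.89% rose, near it. In either direction, 42.1% of the members passed against 17.7% of all genes. At the level of probe sets, 21 of the 84 fell and 4 rose, against 6.43% and 6.14% of all probe sets. The members are bright, however, and bright genes passed more often. Of the 4498 genes with a mean signal over 500, a limit set with the values in view, 23.8% fell and 19.8% rose. Of the 34 members over that limit 12 fell and 2 rose (35.3% and 5.88%). Both directions together gave 41.2% of bright members against 43.6% of bright genes, so the members passed the test about as often as other bright genes, with fewer of the calls upward. The signals of the groups did not overlap for 26 of the 38 members, against 33.5% of all genes and 60.8% of bright genes. The median log2 change was -0.13 over the members, 0.06 over all genes and -0.04 over bright genes. In these bulk cultures, a lower share of cells that carry a transcript and less of the transcript per cell cannot be told apart.

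**Figure D1:**
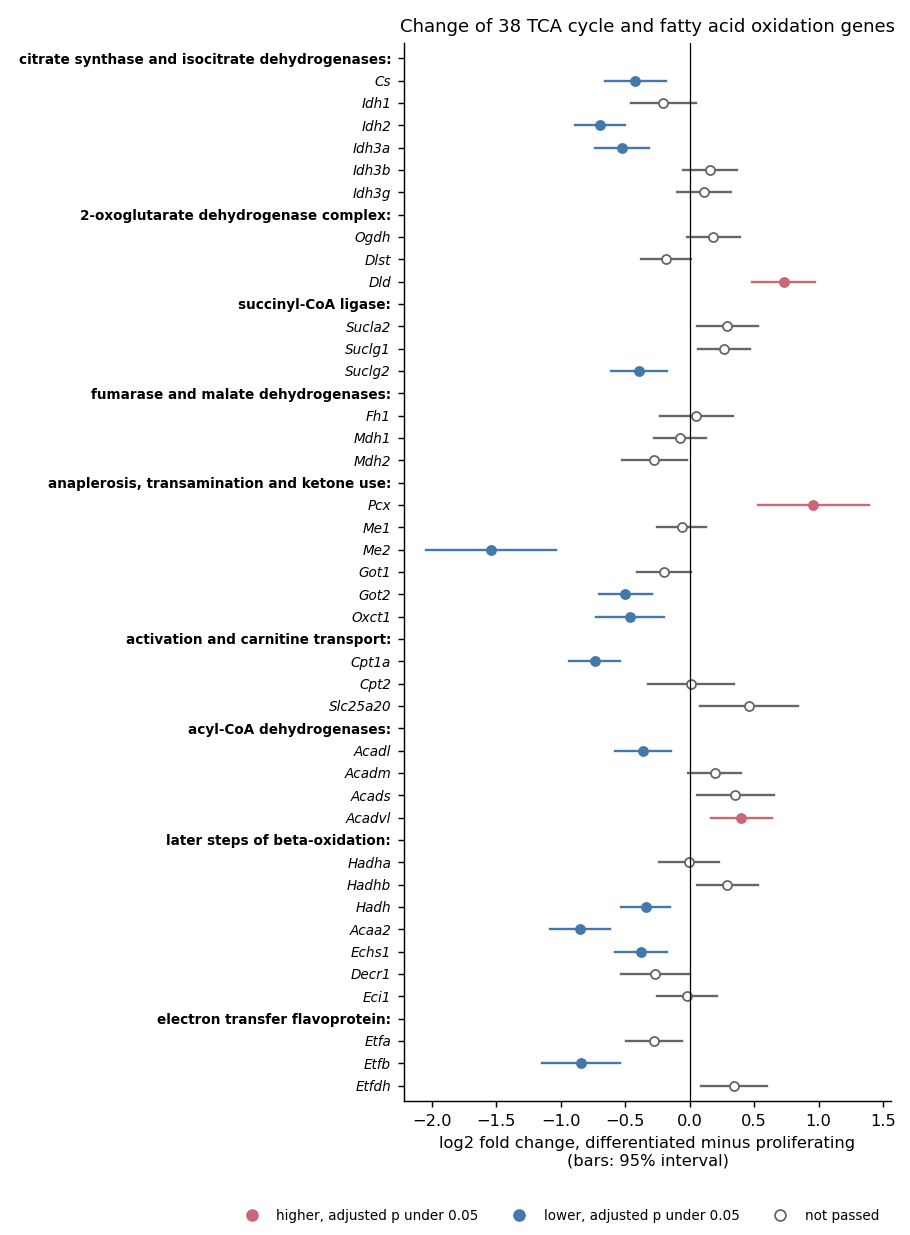
Log2 fold change of each of the 38 measured genes, differentiated minus proliferating on log2(signal + 15), ordered by step of the pathway. Points are fitted values, bars are 95% intervals, blue points fell and red points rose at an adjusted p under 0.05, and open points did not pass. The points range from -1.54 for Me2 to 0.96 for Pcx, and 13 are blue and 3 are red.

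Sizes were modest. Only 7 of the 16 genes that passed moved by at least 1.5-fold: Idh2, Me2, Cpt1a, Acaa2 and Etfb downward and Dld and Pcx upward. A value of 15 was added to each signal before taking log2, which shrinks the change of dim genes slightly. When the variance was modelled without its trend on signal, 3 members passed, Me2, Cpt1a and Acaa2, and 1433 of all genes in place of 3225. All 16 kept their direction under each of the 19 other settings tried. In many of these the direction could not turn. Settings that alter only the statistical model, the test or its threshold keep the same log2 change. The groups overlapped for none of the 16, so leaving out 1 array could not turn it either.

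**Figure D2:**
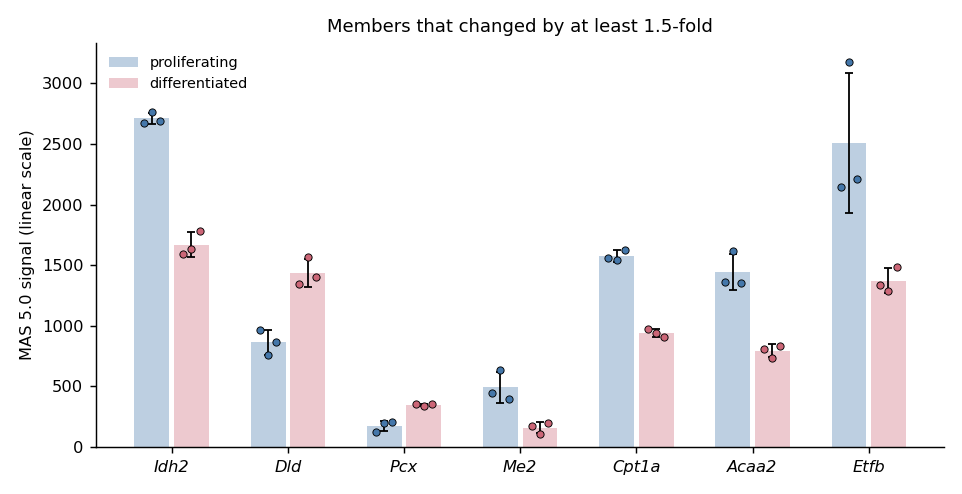
MAS 5.0 signals on the 6 arrays of the 7 genes that passed the test and moved by at least 1.5-fold. Dots are single arrays, bars are group means and error bars are 1 SD over 3 arrays. The signals of the groups overlap for none of the 7.

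Transcripts of citrate synthase and of 2 of the 5 isocitrate dehydrogenase genes fell in differentiated cells. Citrate synthase, which condenses acetyl-CoA with oxaloacetate, is encoded by Cs, whose signals were 7001, 6128 and 6951 on the proliferating arrays and 5146, 5469 and 4397 on the differentiated arrays. The groups did not overlap, and Cs fell 1.34-fold (log2 change -0.42, SE 0.11, adjusted p = 0.0218). All 3 probe sets of Cs fell. For the brightest of them the call was lost when proliferating array 1 or 3 or differentiated array 1 or 3 was left out (log2 changes -0.45 to -0.33, adjusted p = 0.0675 to 0.092) and after quantile normalization of the arrays (log2 change -0.28, adjusted p = 0.169).

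Isocitrate dehydrogenase exists in a NAD-dependent form in the matrix, built from the products of Idh3a, Idh3b and Idh3g, and in NADP-dependent forms in mitochondria (Idh2) and in the cytosol (Idh1). Idh2 signals were 2674, 2765 and 2693 in proliferating and 1590.2, 1632 and 1785 in differentiated cells. All 3 differentiated arrays were below the lowest proliferating one, a 1.62-fold decrease (log2 change -0.70, SE 0.09, adjusted p = 0.000149). The mean over both Idh2 probe sets, of which the other exceeded the controls on 1 array, did not pass (log2 difference -0.50, adjusted p = 0.132). Idh1 had signals of 2202, 2607 and 2589.5 against 2495, 1951 and 1999. These overlapped, and the difference did not pass (log2 difference -0.20, adjusted p = 0.345).

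Of the 3 subunits of the NAD-dependent enzyme 1 fell. Idh3a, the catalytic subunit, had signals of 2098, 2018 and 2025 in proliferating and 1489, 1489 and 1285 in differentiated cells and fell 1.44-fold (log2 change -0.52, SE 0.10, adjusted p = 0.0022). Of its 3 dimmer probe sets none passed, and the dimmest differed the other way (log2 difference 0.40). The mean over all 4 did not pass either (log2 difference -0.12, adjusted p = 0.572). The other two subunits gave log2 differences of 0.16 (adjusted p = 0.379) for Idh3b and 0.11 (adjusted p = 0.579) for Idh3g. For Idh3b the second probe set above the controls differed the other way, at -0.30, so the sign of Idh3b depended on the probe set.

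In the 2-oxoglutarate dehydrogenase complex, the decarboxylating subunit Ogdh and the succinyl-transferring subunit Dlst did not pass, with log2 differences of 0.18 (adjusted p = 0.284) and -0.18 (adjusted p = 0.258). Dld, dihydrolipoamide dehydrogenase, serves this complex, pyruvate dehydrogenase and the branched-chain complex alike. Its signals were 961, 762 and 863 on the proliferating arrays and 1343, 1569 and 1399 on the differentiated arrays. Dld was thus higher on every differentiated array, by 1.66-fold (log2 change 0.73, SE 0.11, adjusted p = 0.000646), the one TCA cycle gene whose brightest probe set rose. Its second probe set lay at background, and the mean over both did not pass (log2 difference 0.21, adjusted p = 0.699).

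Succinyl-CoA ligase joins a shared subunit, Suclg1, to either the ADP-forming subunit Sucla2 or the GDP-forming subunit Suclg2. Suclg2 signals were 914, 868 and 852 in proliferating and 663, 662 and 671 in differentiated cells. Suclg2 fell 1.31-fold (log2 change -0.39, SE 0.10, adjusted p = 0.0211), and its second probe set fell too (log2 change -0.68). Without proliferating array 1, differentiated array 1 or differentiated array 2 the brighter one no longer passed (log2 changes -0.39 to -0.36, adjusted p = 0.063 to 0.0788). Sucla2 signals were 1929.5, 1638 and 1586 against 2136, 1891 and 2287, which overlapped and did not pass (log2 difference 0.29, adjusted p = 0.115). Suclg1 signals did not overlap, but the difference did not pass (log2 difference 0.27, adjusted p = 0.0905).

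For the last steps of the cycle the brightest probe sets did not pass, but other probe sets of both malate dehydrogenases did. Fumarase, encoded by Fh1, differed by 0.05 (adjusted p = 0.879). Mdh2, the mitochondrial malate dehydrogenase, had signals of 7450.4, 9785 and 8791 in proliferating and 6813, 6932 and 7686 in differentiated cells, with 1 differentiated array inside the proliferating range (log2 difference -0.27, adjusted p = 0.181). A second Mdh2 probe set of like brightness fell (log2 change -0.50, adjusted p = 0.00779), and the mean over both passed. Mdh1, the cytosolic enzyme of the malate-aspartate shuttle, read 3599, 3964 and 3886 against 3763, 3729 and 3388, with a 95% interval of -0.27 to 0.13 for the log2 difference. A dimmer Mdh1 probe set rose (log2 change 0.44, adjusted p = 0.00586), so for both malate dehydrogenases the probe sets gave different calls. Of the 5 measured genes of other steps of the cycle, Aco1, Sdha, Sdhb, Sdhc and Sdhd, 1 fell: Sdhb, the iron-sulfur subunit of succinate dehydrogenase (log2 change -0.41, SE 0.10, adjusted p = 0.0186). The Sdhb call was lost without proliferating array 1 or 2 or differentiated array 1 or 2 (log2 changes -0.42 to -0.33, adjusted p = 0.0600 to 0.0850).

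Over the 15 TCA cycle genes, 4 fell, 1 rose and 10 did not pass. Their median log2 change was -0.07, with a range of -0.70 to 0.73, and it was 0.05 after quantile normalization. The groups did not overlap for 9 of the 15, against 33.5% of all genes and 60.8% of bright genes. All 15 had a mean signal over 500. Of bright genes 23.8% fell and 19.8% rose, and of all genes 9.05% and 8.67%.

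Reactions that feed the cycle held both ends of the range of change. Me2, the NAD-dependent malic enzyme of mitochondria, which turns malate into pyruvate, had signals of 446, 633 and 393 in proliferating and 171, 109.6 and 198 in differentiated cells. This was a 2.91-fold decrease (log2 change -1.54, SE 0.23, adjusted p = 0.000535), with no overlap. Of 2 other Me2 probe sets above the controls in a group, both dim, neither passed (log2 differences -0.14 and 1.16), and the mean over all 4 probe sets did not pass (-0.24, adjusted p = 0.658), so the decrease rests on the brightest. Me1, the cytosolic NADP-dependent malic enzyme, read 1581, 1519.8 and 1626 against 1532, 1500.3 and 1494. Its signals overlapped, and the 95% interval of its log2 difference was -0.25 to 0.13.

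Pcx encodes pyruvate carboxylase, which makes oxaloacetate from pyruvate. Its signals were 126, 195 and 203 on the proliferating arrays and 353, 337 and 351 on the differentiated arrays, higher on each of the latter, and Pcx rose 1.94-fold (log2 change 0.96, SE 0.20, adjusted p = 0.00556). The array also holds 4 control probe sets for Pcx, which were left out of the test. Of these, the probe set at the 3′ end read 125.9 to 133.8 in proliferating and 212.0 to 265.3 in differentiated cells, while signals of the other 3 overlapped between the groups.

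Got1 and Got2 encode the cytosolic and mitochondrial aspartate aminotransferases, which exchange glutamate and oxaloacetate for aspartate and 2-oxoglutarate. Got2 signals were 4639, 5218 and 4437 in proliferating and 3292, 3364 and 3418 in differentiated cells. The groups did not overlap, and Got2 fell 1.41-fold (log2 change -0.50, SE 0.09, adjusted p = 0.00299) on both probe sets above the controls. The mean over all 4 Got2 probe sets did not pass (log2 difference -0.27, adjusted p = 0.292). Got1 signals of 2495, 2360.2 and 2199 against 2175, 2078 and 1883 did not overlap either, but did not pass (log2 difference -0.20, adjusted p = 0.243). Oxct1, the transferase with which tissues outside the liver use ketone bodies, fell 1.38-fold (log2 change -0.46, SE 0.12, adjusted p = 0.0233). The Oxct1 call was lost without proliferating array 2, differentiated array 1 or differentiated array 3 (log2 changes -0.47 to -0.33, adjusted p = 0.0668 to 0.0891) and with the mean over its 4 probe sets (-0.35, adjusted p = 0.107). Of the 6 genes of this group 3 fell and 1 rose, with a median log2 change of -0.33. Of all genes 9.05% fell and 8.67% rose, and of bright genes 23.8% and 19.8%.

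Fatty acid entry into mitochondria was measured by 3 genes. Cpt1a, the outer-membrane carnitine palmitoyltransferase of liver and many other cells, had signals of 1558, 1539 and 1629 in proliferating and 972, 942 and 905 in differentiated cells. Every differentiated array lay below the proliferating ones, and Cpt1a fell 1.67-fold (log2 change -0.74, SE 0.09, adjusted p = 0.000119). The decrease passed under each of the 19 other settings tried. Of 2 dimmer Cpt1a probe sets neither passed (log2 differences -0.53 and -0.12). Cpt2, the inner-membrane enzyme, read 387 ± 54.1 in proliferating and 389 ± 48.9 in differentiated cells (SD, n = 3), with a 95% interval of -0.32 to 0.34 for the log2 difference. Slc25a20, the carnitine-acylcarnitine carrier of the inner membrane, was 419 ± 86.9 against 580.0 ± 97.9 and did not pass (log2 difference 0.46, adjusted p = 0.121).

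The 4 acyl-CoA dehydrogenases, which open each round of beta-oxidation and differ in chain length, did not move together. Acadvl, for very long chains, rose 1.32-fold (log2 change 0.40, SE 0.11, adjusted p = 0.0287), while Acadl, for long chains, fell 1.29-fold (log2 change -0.36, SE 0.10, adjusted p = 0.0305). Acadm and Acads, for medium and short chains, did not pass, with log2 differences of 0.19 (adjusted p = 0.252) and 0.36 (adjusted p = 0.131), although for both the groups did not overlap. The calls of Acadvl and Acadl were lost without most of the 6 arrays in turn, when 2454 to 2843 of all genes passed in place of 3225. Acadvl no longer passed without proliferating array 1 or 3 or differentiated array 1 or 3 (log2 changes 0.33 to 0.39, adjusted p = 0.0815 to 0.14) or with arrays scaled to the same 75th percentile (0.35, adjusted p = 0.0692). Acadl no longer passed without proliferating array 2 or 3 or any 1 differentiated array (log2 changes -0.39 to -0.30, adjusted p = 0.0714 to 0.116) or after quantile normalization (-0.28, adjusted p = 0.0596).

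Of the 7 genes of the later steps, 3 fell and 4 did not pass. All 7 had a mean signal over 500. Of bright genes 23.8% fell and 19.8% rose, and of all genes 9.05% and 8.67%. Acaa2, the thiolase that releases acetyl-CoA in mitochondria, had signals of 1359, 1619 and 1355 in proliferating and 809.6, 736 and 837 in differentiated cells. It fell 1.80-fold (log2 change -0.85, SE 0.11, adjusted p = 0.000138), all 3 of its probe sets fell, and the call passed under each of the 19 other settings. Echs1, the short-chain enoyl-CoA hydratase, went from 1479 ± 81.6 to 1136 ± 35.5 (log2 change -0.38, SE 0.09, adjusted p = 0.0176). Hadh, the short-chain 3-hydroxyacyl-CoA dehydrogenase, went from 4283 ± 114 to 3381 ± 86.9 (log2 change -0.34, SE 0.09, adjusted p = 0.0202), on a probe set whose name marks probes that may match other transcripts. A second Hadh probe set without that mark differed by -0.35 and narrowly missed the threshold (adjusted p = 0.0524). The third differed the other way (0.36), and the mean over all 3 did not pass (log2 difference -0.11, adjusted p = 0.648).

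The calls of Echs1 and Hadh were lost without any of several single arrays, while their values stayed at -0.41 to -0.33 and -0.36 to -0.32. With 1 array left out, 2454 to 2843 of all genes passed in place of 3225. Echs1 was lost without proliferating array 1, proliferating array 2 or differentiated array 2 (log2 changes -0.38 to -0.33, adjusted p = 0.0513 to 0.0676). Hadh was lost without proliferating array 1 or 3 or differentiated array 1 or 2 (-0.35 to -0.32, adjusted p = 0.0533 to 0.0923) and after quantile normalization (-0.21, adjusted p = 0.134). Hadha and Hadhb, the subunits of the trifunctional protein that carries out the same steps on long chains, gave log2 differences of -0.0031 (adjusted p = 0.994) and 0.29 (adjusted p = 0.119). Decr1, the dienoyl-CoA reductase, and Eci1, the enoyl-CoA isomerase, both needed for unsaturated chains, gave -0.27 (adjusted p = 0.218) and -0.02 (adjusted p = 0.95). The sign of Hadha turned after quantile normalization (0.03), and a dimmer Decr1 probe set differed the other way (0.60).

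Electrons from the acyl-CoA dehydrogenases pass to the electron transfer flavoprotein, a dimer of the Etfa and Etfb products, and from there through Etfdh to ubiquinone. Etfb signals were 2143, 3177 and 2211 in proliferating and 1336, 1288 and 1488 in differentiated cells. Proliferating array 2 was well above the other two, yet all proliferating signals exceeded the differentiated ones, and Etfb fell 1.80-fold (log2 change -0.84, SE 0.14, adjusted p = 0.00106). Etfa and Etfdh did not pass, with log2 differences of -0.27 (adjusted p = 0.104) and 0.34 (adjusted p = 0.0808). For both, the groups did not overlap.

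**Figure D3:**
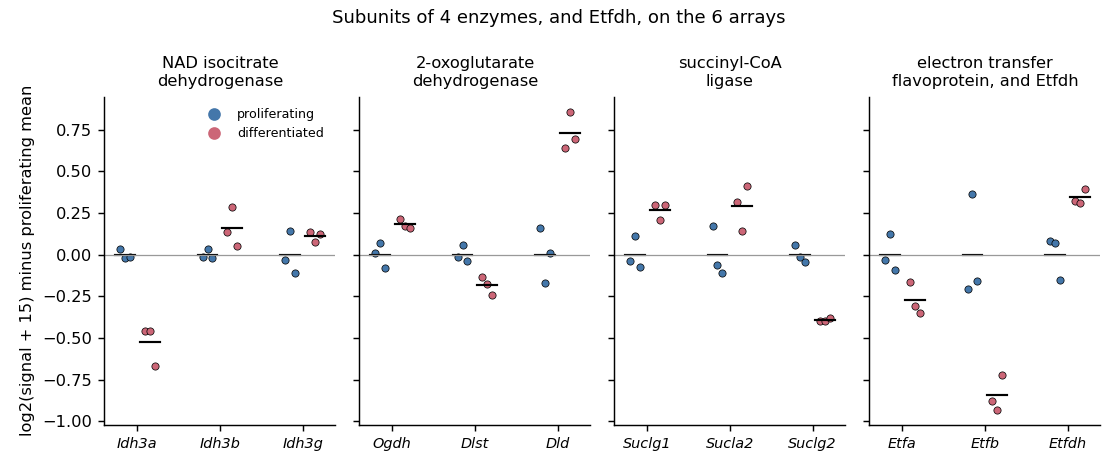
Subunits of 4 mitochondrial enzymes, and Etfdh beside the electron transfer flavoprotein from which it takes electrons, on the 6 arrays, as log2(signal + 15) minus the mean of the proliferating arrays. Dots are single arrays, short lines are group means, and each gene is set to 0 at its own proliferating mean, so levels of different genes are not compared. In the differentiated group Idh3a, Suclg2 and Etfb lie below 0 and Dld above 0 at an adjusted p under 0.05, and the other 8 genes did not pass.

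Over the 17 measured genes of fatty acid oxidation, 6 fell, 1 rose and 10 did not pass, and the groups did not overlap for 12. Of bright genes 23.8% fell, 19.8% rose and 60.8% did not overlap, and of all genes 9.05%, 8.67% and 33.5%. The median log2 change of the 17 genes was -0.02, with a range of -0.85 to 0.46, against -0.07 for the TCA cycle. The medians of the 2 pathways differed by 0.054. Between single arrays of a group that difference had an SD of 0.056. The value of 0.054 rests on means over 3 arrays per group, so this SD is not its error, and the difference was not tested. The difference depended on the setting. It was -0.07 after quantile normalization and -0.03 without proliferating array 3. With probe sets whose names mark shared probes left out it was 0.16, larger than the main value and in the same direction.

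Subunits of one enzyme and enzymes of the same reaction in different compartments were set against each other within arrays, as the log2 ratio of their signals, in 5 pairs. The exact two-sided permutation test over 3 against 3 arrays cannot give a p below 0.1. The difference of the log2 ratio, differentiated minus proliferating, was -1.48 for Me2 to Me1, -0.49 for Idh2 to Idh1 and -0.30 for Got2 to Got1, each with no overlap between the groups (exact permutation p = 0.1 each, 0.125 after adjustment over the 5 pairs). The ratio of the ADP-forming to the GDP-forming ligase subunit, Sucla2 to Suclg2, differed by 0.68, with log2 ratios of 0.89 to 1.07 on the proliferating and 1.49 to 1.75 on the differentiated arrays (exact permutation p = 0.1, adjusted 0.125). The ratio of Mdh2 to Mdh1 differed by -0.20 and overlapped (exact permutation p = 0.3, adjusted 0.3). None of the 5 pairs passed the test, and the Me2 value rests on the brightest of its probe sets.

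The promoters of the members, from 250 bases before to 50 bases after the start site, were read from RefSeq (GRCm38.p6), which had one for 34 of the 38 genes, and were searched on both strands. The site of NRF1, a factor known for binding promoters of nuclear genes for mitochondrial proteins, was searched as the letters shown in capitals below. Any base was allowed at the sixth of the 10 positions. The site was found in 4 members, Dld, Sucla2, Etfb and Etfdh, or 11.8%, against 5.19% of all 27025 genes with a promoter. Of these 4 genes 1 rose, 1 fell and 2 did not pass, so their calls differed. The 3 windows in which the match lies before the start site are shown, to place it in genes of the results above. Of these genes Etfb fell and Etfdh and Sucla2 did not pass. Capitals mark the NRF1 match, and each reads 5′ to 3′ on the strand of its gene. In Sucla2 the match is on the opposite strand.
Etfdh, chr3:79628861-79628920, minus strand: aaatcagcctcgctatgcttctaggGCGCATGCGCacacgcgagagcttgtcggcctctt
Etfb, chr7:43444012-43444071, plus strand: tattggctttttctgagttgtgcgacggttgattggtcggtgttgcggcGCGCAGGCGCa
Sucla2, chr14:73552726-73552785, plus strand: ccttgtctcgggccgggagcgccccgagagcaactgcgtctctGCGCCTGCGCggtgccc

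The start of the Etfdh match lies 128 bases before the start site, that of Etfb 11 and that of Sucla2 17 bases before it. The ETS letters CCGGAAGT were in 3 members, Dlst, Cpt2 and Slc25a20, against 4.31% of all genes with a promoter. The CREB letters TGACGTCA were in 2, Ogdh and Mdh2, against 2.03%. None of these 5 genes passed the test. The letters TNAAGGTCA (estrogen-related receptors, 1.43% of all genes) and a direct repeat of AGGTCA with 1 base between (PPARs, 0.0481%) were in none of the 34 members. The same held for TTTCGCGC (E2F, 0.374%) and the MEF2 site (0.122%). CANNTG, the E-box, was in 24 of 34 members and in 75% of all genes with a promoter. A match of letters is a description of the sequence.

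Genes of the neighbouring steps, taken from lists, were described in the same way. Of 65 such genes measured 13 rose, 13 fell and 39 did not pass, with a median log2 change of 0.02. These shares stand beside 8.67% of all genes that rose and 9.05% that fell, and 19.8% and 23.8% of bright genes. Pyruvate enters mitochondria through the pyruvate carrier and is turned into acetyl-CoA by the pyruvate dehydrogenase complex. Of the 4 measured genes of the complex 3 rose, Pdha1, Dlat and Pdhx, as did Mpc1, while Pdhb did not pass (log2 difference 0.18, adjusted p = 0.333). Mpc1, a subunit of the carrier, went from 988 ± 54.9 to 1503 ± 77.3 (log2 change 0.60, SE 0.10, adjusted p = 0.000912), and Pdha1, the catalytic subunit, from 3799 ± 57.8 to 5702 ± 111 (log2 change 0.58, SE 0.09, adjusted p = 0.000496). Dlat, the acetyltransferase, lay close to the threshold (log2 change 0.33, SE 0.10, adjusted p = 0.0492) and no longer passed when any 1 of the 6 arrays was left out (0.30 to 0.36, adjusted p = 0.0725 to 0.151). Pdhx, the component that binds Dld in the complex, passed (log2 change 0.52, SE 0.15, adjusted p = 0.0377), though not without proliferating array 2 or 3 or differentiated array 1 or 2 (log2 changes 0.44 to 0.54, adjusted p = 0.0793 to 0.168).

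Of 7 measured genes of the kinases and phosphatases of that complex, 3 rose, 1 fell and 3 did not pass. Of all genes 8.67% rose and 9.05% fell. Pdp1, a phosphatase that activates the complex, rose 2.36-fold, from 243 ± 7.73 to 595 ± 54.3 (log2 change 1.24, SE 0.14, adjusted p = 3.97e-05). Of the kinases that inactivate it, Pdk3 fell (log2 change -0.84, SE 0.21, adjusted p = 0.0159), and its call was lost without proliferating array 2 or differentiated array 1 (-0.73 to -0.70, adjusted p = 0.0691 to 0.0748). Pdk2 was above the bacterial controls on no proliferating and on all 3 differentiated arrays (adjusted p = 0.0415). Its differentiated mean on the log2 scale lay 1.86-fold above the brightest controls of the proliferating arrays, a value that leaves out the spread between arrays. The Pdk2 call was lost without proliferating array 2 or 3 or differentiated array 1 or 3 (log2 changes 1.16 to 1.40, adjusted p = 0.0988 to 0.207). Pdk4, the kinase known to be induced by fasting and fatty acids, read 1326 ± 202 in proliferating and 1156 ± 135 in differentiated cells and did not pass (log2 difference -0.19, adjusted p = 0.451). Pdpr, of the same list, rose (log2 change 0.78, SE 0.15, adjusted p = 0.00379). Pdk1 and Pdp2 did not pass (log2 differences -0.14 and -0.22, adjusted p = 0.684 and 0.782).

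Of 6 shuttle carriers 2 fell, Slc25a10, the dicarboxylate carrier (log2 change -1.25, SE 0.12, adjusted p = 1.04e-05), and Slc25a1, the citrate carrier (log2 change -0.58, SE 0.11, adjusted p = 0.00357). Slc25a13, of the same list, was above the bacterial controls on none of the 6 arrays. As background, 9.05% of all genes and 23.8% of bright genes fell. Of 5 anaplerotic and glutamine enzymes 3 fell: Pck2, mitochondrial phosphoenolpyruvate carboxykinase (log2 change -0.80, SE 0.09, adjusted p = 5.31e-05), Acly, which splits exported citrate in the cytosol (log2 change -0.73, SE 0.09, adjusted p = 0.000142), and Glud1, glutamate dehydrogenase (log2 change -0.46, SE 0.11, adjusted p = 0.0154). Glud1 no longer passed without proliferating array 1 or 3 or differentiated array 3 (log2 changes -0.47 to -0.34, adjusted p = 0.0500 to 0.0600). Acat1, the mitochondrial acetoacetyl-CoA thiolase, fell 1.94-fold (log2 change -0.96, SE 0.10, adjusted p = 2.78e-05).

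The long-chain acyl-CoA synthetases, of which Acsl1 could not be measured, moved in both directions, and all 4 that were measured passed. In either direction, 17.7% of all genes and 43.6% of bright genes passed. Acsl3 rose from 949.5 ± 156 to 2478 ± 56.7 (log2 change 1.38, SE 0.11, adjusted p = 3.53e-06), and Acsl4 rose too (log2 change 0.74). Acsl6 was above the bacterial controls on no proliferating and on all 3 differentiated arrays (adjusted p = 0.000149). Its differentiated mean on the log2 scale lay 4.29-fold above the brightest controls of the proliferating arrays, again without the spread between arrays. Acsl5 fell from 1102 ± 58.4 to 599 ± 17.1 (log2 change -0.86, SE 0.10, adjusted p = 7.12e-05).

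**Figure D4:**
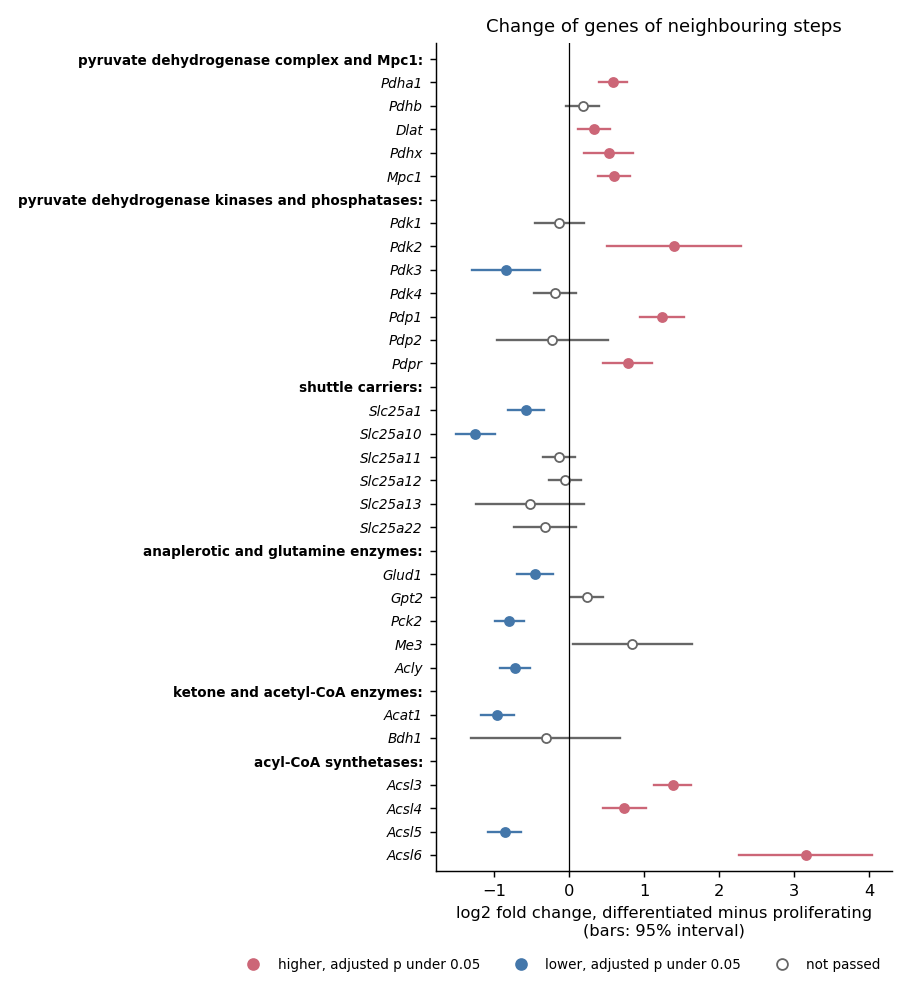
Log2 fold change, differentiated minus proliferating on log2(signal + 15), of genes of steps that neighbour the TCA cycle and fatty acid oxidation, by list. Points are fitted values, bars are 95% intervals, and colours are red for a rise, blue for a fall and open for no pass at an adjusted p under 0.05. In the first list, the pyruvate dehydrogenase complex with the pyruvate carrier gene Mpc1, 4 of 5 points are red, and among the shuttle carriers and anaplerotic enzymes plotted 5 points are blue. The points of Pdk2 and Acsl6 are no measure of size, since their proliferating signals lay at background.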

How the data were processed

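Total RNA of 3 proliferating and 3 differentiated C2C12 samples was hybridized to Affymetrix Mouse Genome 430 2.0 arrays. The deposited values are 1-colour signal intensities per probe set, which, per the labels, the authors obtained with MAS 5.0 (version not given in the sources used here), on a linear scale with a trimmed mean of 250 per array. The methods of the study applied GCRMA to probe-level data, which were not used here. Probe sets were named through the platform annotation: 34958 carried 1 symbol, 932 several and 9211 none. After 64 control probe sets were left out, log2(signal + 15) of 45037 probe sets was fitted in limma 3.58.1 (R 4.3.3; lmFit, eBayes with trend), two-sided, with Benjamini-Hochberg adjustment over all probe sets and a threshold of 0.05. For each gene the probe set with the highest mean signal over the 6 arrays was used. Ratios were tested by exact permutation (scipy 1.17.1). The scripts were tested on simulated data.

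The members, the other lists and the tests were chosen with earlier results of these data known. Signals in every array are given for the genes of the pairs and for members that passed and changed by at least 0.58 on the log2 scale. Of each other list up to 3 passing genes with the largest change are named, with Pdk4, Ppargc1a, Esrra and Ppard in any case. Acsl4, Dlat, Pdhb, Pdpr, Pdk1, Pdp2, Slc25a13, Ppara, Acacb, Esrrg and Prkaa2 were named after their values were seen. The alternatives covered normalization, pseudocount, a filter on dim probe sets, variance model, the methods' regularized t-test, thresholds, the choice of probe set, the replicate block and leaving out each array. The number of arrays limits the precision, and p-values measure only the spread between these pooled samples. Deviations of arrays with the same number correlated at 0.0526, 0.0211 and 0.0194, so the numbers were not taken as pairs.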

Additional observations from a re-analysis of the deposited data

How the results depend on the processing

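The 16 calls kept their direction under all 19 alternatives, and 9 of them passed without each single array. The direction could turn only where the values themselves changed, by normalization, pseudocount or choice of probe set. Fewer calls remained under stricter rules. Modelling the variance without a trend left 0 members higher and 3 lower (0 of the TCA cycle and 2 of fatty acid oxidation), with 1433 of all genes called in place of 3225. At an adjusted p under 0.01, 7 were lower (3 of the TCA cycle and 3 of fatty acid oxidation called), with 2133 genes called. At least 1.5-fold beside the threshold left 5 lower (2 and 3), as did the methods' regularized t-test at an unadjusted p under 0.05 with 1.5-fold (5, 2 and 3), while its adjusted form called 16. The mean over a gene's probe sets gave 8 lower and 3 called in the TCA cycle.

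After quantile normalization 10 members were lower and 4 higher, in place of 13 and 3. It gave a TCA cycle median of 0.051 and a difference of fatty acid oxidation minus TCA cycle of -0.069. Leaving out probe sets marked as shared gave -0.18 and 0.16. Without single arrays, 2 to 4 members were higher and 8 to 10 lower, 3 to 6 TCA cycle and 4 to 5 fatty acid oxidation genes were called, the TCA cycle median was -0.12 to -0.046, that of fatty acid oxidation -0.098 to -0.0056 and their difference -0.030 to 0.091. Pair differences were then -0.59 to -0.35 for Idh2 to Idh1, -0.30 to -0.14 for Mdh2 to Mdh1, -0.37 to -0.24 for Got2 to Got1, -1.65 to -1.26 for Me2 to Me1 and 0.63 to 0.75 for Sucla2 to Suclg2.

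With the replicate number as a block, 2 members were higher and 12 lower, since Acadl (adjusted p = 0.0548) and Acadvl (0.0517) were lost. The numbers are not known to pair the samples, although each array's deviations correlated best with those of its own number.

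Signs turned only for genes that did not pass. Quantile normalization gave 0.051 for Mdh1, -0.0075 for Cpt2 and 0.028 for Hadha. The common 75th percentile gave -0.00029 for Fh1 and -0.042 for Cpt2. The mean over probe sets gave -0.18 for Idh3b, -0.24 for Ogdh, -0.079 for Sucla2, 0.14 for Mdh1, -0.022 for Cpt2, 0.16 for Decr1, -0.017 for Etfdh and 0.043 for Esrra. Leaving out shared probe sets gave -0.30 for Idh3b. Without single arrays the log2 differences ran from -0.090 to 0.10 for Cpt2, -0.068 to 0.10 for Hadha, -0.11 to 0.16 for Fh1, -0.098 to 0.029 for Eci1, -0.12 to 0.12 for Esrra and -0.083 to 0.27 for Ppard. Suclg1 passed after quantile normalization and without proliferating array 2, and Mdh2 and Slc25a20 with the mean over probe sets. The causes were not tested. Signals under the bacterial controls set no size of change.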

Other observations

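Beyond the core genes, 12 other genes were measured of a list of acyl-CoA dehydrogenases, thioesterases and further acyl-CoA enzymes, most of them mitochondrial, which also holds the peroxisomal reductase Decr2 and Acad8 of valine breakdown. Of these 3 rose, 2 fell and 7 did not pass. Acad11 and Acadsb, further acyl-CoA dehydrogenases, rose, with log2 changes of 0.91 (adjusted p = 0.0321) and 0.87 (adjusted p = 0.00156). Acad9, a relative of Acadvl also known for its part in assembling respiratory complex I, fell, with a log2 change of -0.84 (adjusted p = 0.00524). Without proliferating array 1 or 3 or differentiated array 1 or 2 Acad11 no longer passed (log2 changes 0.69 to 0.90, adjusted p = 0.087 to 0.146). Of 8 measured genes of peroxisomal beta-oxidation 1 fell, the thiolase gene Acaa1a, with a log2 change of -0.72 (adjusted p = 0.0387), while the list's median log2 change was 0.27. Acaa1a was lost without proliferating array 1 or 2 or differentiated array 2 or 3 (log2 changes -0.76 to -0.53, adjusted p = 0.0764 to 0.178). The background was 8.67% of all genes higher and 9.05% lower.

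Of 11 measured regulators of oxidative metabolism 1 fell, Pparg, a nuclear receptor known for fat cell differentiation, at a signal of 219 ± 20.5 in proliferating and 125 ± 21.2 in differentiated cells (SD, n = 3), a log2 change of -0.75 with an adjusted p from limma of 0.0477. The call was lost when any 1 of the 6 arrays was left out (log2 changes -0.84 to -0.62, adjusted p = 0.0694 to 0.15). Ppargc1a, a coactivator known for driving mitochondrial genes in muscle, was above the bacterial controls on 1 array of each group, with a log2 difference of 0.58 (adjusted p = 0.624). Ppara, Acacb and Esrrg likewise did not exceed the controls on all arrays of either group. Prkaa2 exceeded them on 1 proliferating and all 3 differentiated arrays and did not pass (log2 difference 0.95, adjusted p = 0.0773). The nuclear receptors Esrra and Ppard were above the controls on all 6 arrays, with log2 differences of -0.04 (adjusted p = 0.938) and 0.10 (adjusted p = 0.879), whose signs turned when single arrays were left out.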
